A study of Mus musculus with 4 samples.

Results

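Genes that coat the lipid droplet and genes that break down its triglyceride were examined in perivascular adipose tissue (PVAT) 48 h after endovascular injury. They were *Plin1*, *Plin2*, *Plin4*, *Plin5*, *Pnpla2*, *Lipe*, *Mgll*, *Abhd5*, *G0s2* and *Cidec*, a list made by function and matched by symbol. All 10 were found among the 12661 genes of the table. The tissue was the outer layer around the femoral artery of ovariectomized, wild type C57BL/6 female mice, aged 11 weeks by the labels. In the injury group a wire of 0.38 mm was passed into the artery, and the sham group was operated without it. There were 2 libraries per group, each prepared with a stranded mRNA kit from 480 ng of total RNA and read as 150 bp pairs, and it is not stated whether a library held tissue of 1 mouse or of several. Ovariectomy was common to both groups. The p-values describe only the spread between these libraries.

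The values that the authors deposited are signed scores, of which 50.5% are below 0, on a scale treated here as a logarithm. Its base and the reference that a value of 0 stands for are not stated. They are given here as deposited units, and no fold change was calculated. A value can be compared between libraries for 1 gene, but not as a level between genes. The depth of each library is unknown, and its medians and spread give no measure of it (library SDs 0.321 to 0.438). In bulk tissue, fewer adipocytes and less RNA per adipocyte cannot be told apart.

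Adipocytes store triglyceride in droplets whose surface is covered by perilipins. PLIN1 is the main coat protein of fat cells and restrains lipolysis until protein kinase A phosphorylates it, which frees ABHD5 (CGI-58) to activate adipose triglyceride lipase (ATGL, the product of *Pnpla2*). ATGL, hormone-sensitive lipase (HSL, *Lipe*) and monoglyceride lipase (MGL, *Mgll*) then remove the fatty acids one after the other. G0S2 inhibits ATGL, and CIDEC promotes the fusion of droplets into a large one.

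Within the perilipin family the differences between injury and sham had opposite signs. *Plin1* was lower, and it was the only one of the 10 genes with an adjusted p-value under 0.05. *Plin2*, *Plin5* and *G0s2* had the highest differences, each with both injury libraries above both sham libraries, but none passed that threshold. The lipase genes *Pnpla2* and *Lipe* had small differences that were within the spread between libraries. All adjusted p-values below are from limma, with Benjamini-Hochberg adjustment over all 12661 genes. By that test 1 of the 10 was called lower and 0 higher, where 3.67% of all genes were called lower and 3.76% higher. At an unadjusted p-value under 0.05, 2 were lower (14.8% of all genes) and 4 were higher (14.8% of all genes). Both injury libraries lay above both sham libraries in 4 of the 10, against 31.6% of all genes, and below them in 3, against 30.3%. The median difference was -0.11 deposited units over the 10 genes and 0.0085 over all genes. It was 0.12 without injury replicate 1, so its sign rested on that library.

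**Figure D1:**
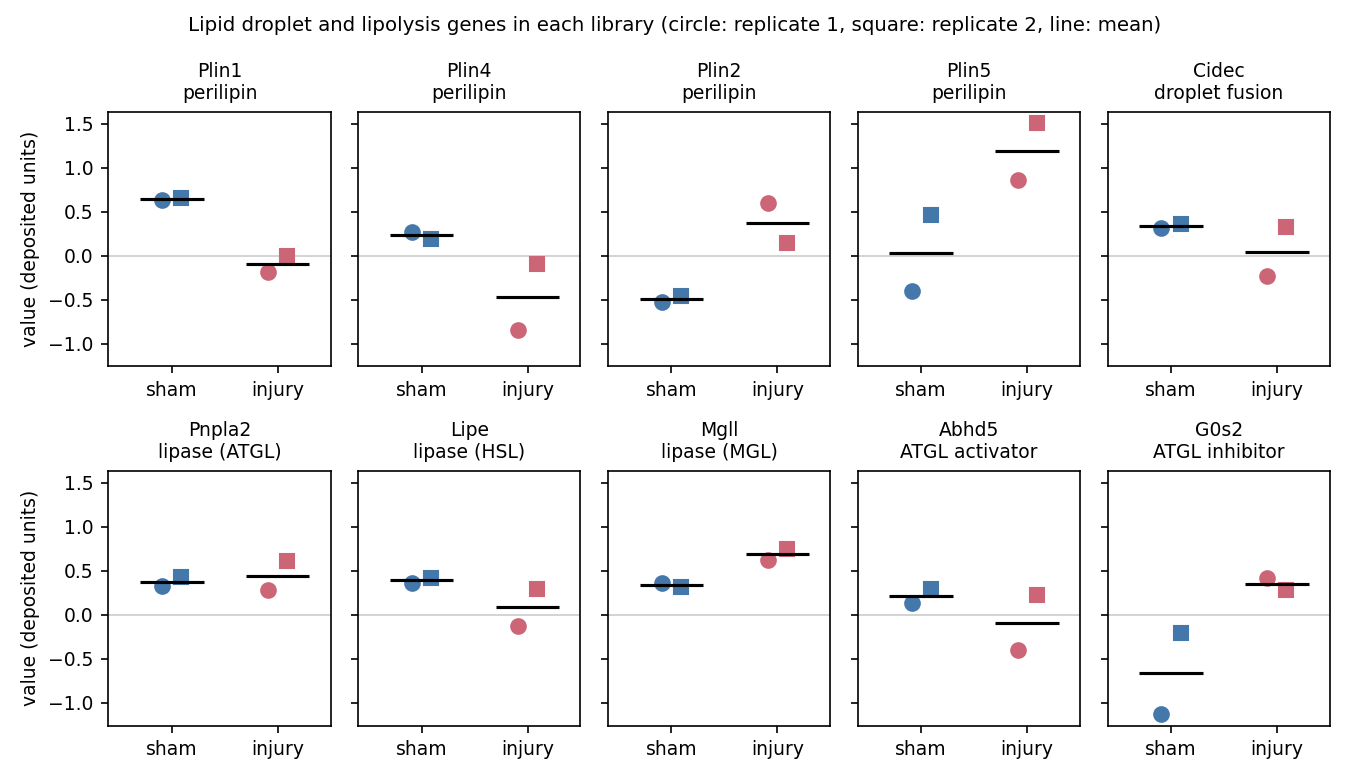
Deposited value (vertical axis, deposited units) of each of the 10 genes in the sham and injury libraries, with circles for replicate 1, squares for replicate 2 and a line for the mean of each group. The sham libraries of *Plin1* lie at 0.63 and 0.66 and its injury libraries at -0.19 and 0.0011, whereas *Plin2* lies at -0.52 and -0.45 and then at 0.59 and 0.15.

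The perilipin genes were examined first. *Plin1* lies on the minus strand of chromosome 7 of mm9, from 86866050 to 86877662. It was at 0.63 and 0.66 in the sham libraries and at -0.19 and 0.0011 in the injury libraries. The groups did not overlap, and the sham libraries were almost equal. The difference was -0.74 deposited units (standard error 0.14, 95% interval -1.10 to -0.38, adjusted p = 0.0444). This call rests on both sham libraries and injury replicate 1. The adjusted p-value was 0.237 without sham replicate 1, 0.174 without sham replicate 2, 0.106 without injury replicate 1 and 0.0333 without injury replicate 2, while the difference stayed between -0.83 and -0.65.

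*Plin4*, which encodes a perilipin of white fat and muscle that coats small nascent droplets, lies on chromosome 17 from 56240014 to 56249225. Its sham values were 0.27 and 0.19 and its injury values -0.84 and -0.097. Both injury libraries were lower, but they were 0.75 apart. The difference was -0.70 (standard error 0.26), with an adjusted p-value of 0.150, above the threshold. Without injury replicate 2 it was -1.08 (adjusted p = 0.0184), and without injury replicate 1 it was -0.33 (adjusted p = 0.304).

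*Plin2*, the perilipin found in most cell types, including macrophages loaded with lipid, lies on chromosome 4 from 86294290 to 86315964. It was at -0.52 and -0.45 after sham operation and at 0.59 and 0.15 after injury. Both injury libraries were above both sham libraries, and injury replicate 1 was the higher of the pair. The difference of 0.86 (standard error 0.19, 95% interval 0.38 to 1.33) missed the threshold narrowly (adjusted p = 0.0550). Without injury replicate 2 it was 1.08 (adjusted p = 0.0181). Without a sham library its adjusted p-value was 0.28 (replicate 1) and 0.183 (replicate 2), and without injury replicate 1 the difference was 0.63 (adjusted p = 0.111). With a robust prior the adjusted p-value was 0.0579. It passed after quantile normalization of the 4 columns (adjusted p = 0.0483), with columns scaled to one spread (0.0471) and with a variance prior that follows the mean (0.0472).

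*Plin5*, the perilipin of oxidative tissues that brings droplets and mitochondria together, neighbours *Plin4* on chromosome 17 on the same strand, from 56251024 to 56257019. The annotated genes are 1798 bases apart. *Plin5* was at -0.40 and 0.46 in the sham libraries and at 0.87 and 1.51 in the injury libraries. The groups did not overlap, but the sham libraries differed by 0.86 and the injury libraries by 0.64. Its difference of 1.16 was the largest among the 10 genes (standard error 0.35, 95% interval 0.28 to 2.03), and its adjusted p-value was 0.10. Leaving out sham replicate 1 gave 0.73, and leaving out sham replicate 2 gave 1.58.

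**Figure D2:**
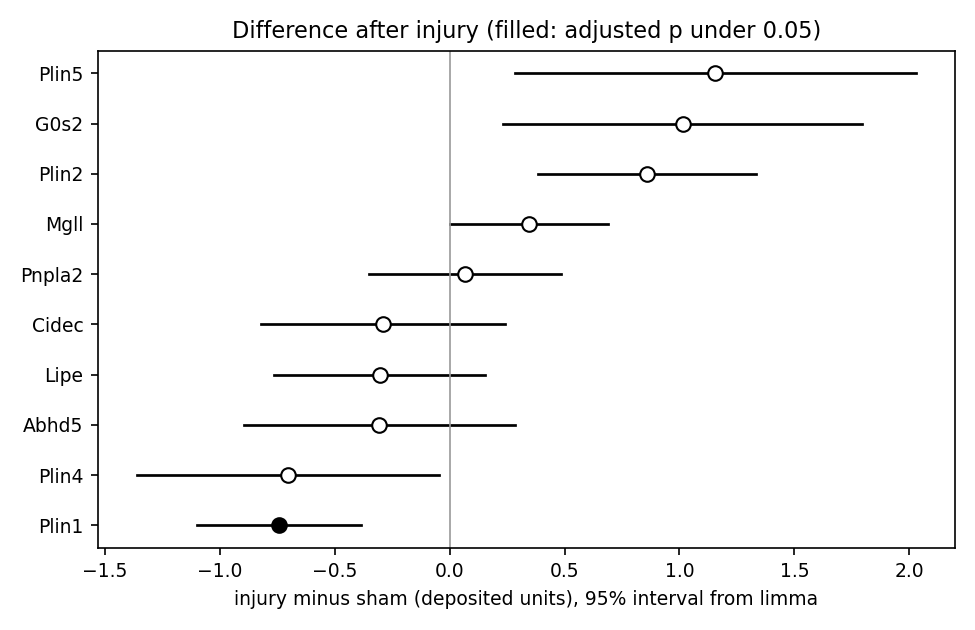
Difference of each gene between injury and sham libraries (horizontal axis, deposited units) with its 95% interval from limma, ordered by size. The filled point, *Plin1* at -0.74, is the gene with an adjusted p-value under 0.05, and the intervals of *Pnpla2*, *Cidec*, *Lipe* and *Abhd5* include 0.

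Because these perilipin genes and *G0s2* had the largest differences of the 10 and these had both signs, the 250 bases before their annotated starts are shown. The sequences are from RefSeq on GRCm38.p6, a later build than the mm9 of the gene coordinates above, and all 10 genes matched an entry by symbol (14 start windows, since some genes have several starts). Each is printed 5′ to 3′ on the strand of the gene. Capitals mark AGGTCA or its reverse complement TGACCT, the motif read by nuclear receptors such as the peroxisome proliferator-activated receptors (PPARs), which bind it as a tandem repeat. The windows are chr7:79732777-79733026 for *Plin1*, chr17:56109783-56110032 for *Plin4*, chr4:86670060-86670309 for *Plin2*, chr17:56117549-56117798 for the first of the *Plin5* starts and chr1:193273189-193273438 for *G0s2*, all on the minus strand.
Plin1: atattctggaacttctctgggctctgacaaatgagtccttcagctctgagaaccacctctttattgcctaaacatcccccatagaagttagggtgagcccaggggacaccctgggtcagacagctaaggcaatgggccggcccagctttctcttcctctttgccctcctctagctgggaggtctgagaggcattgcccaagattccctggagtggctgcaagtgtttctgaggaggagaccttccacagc
Plin4: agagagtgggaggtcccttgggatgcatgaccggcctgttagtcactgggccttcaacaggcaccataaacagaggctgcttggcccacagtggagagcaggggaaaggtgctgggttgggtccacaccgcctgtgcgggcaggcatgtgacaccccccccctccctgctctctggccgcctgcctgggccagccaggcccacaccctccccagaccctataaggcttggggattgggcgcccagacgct
Plin2: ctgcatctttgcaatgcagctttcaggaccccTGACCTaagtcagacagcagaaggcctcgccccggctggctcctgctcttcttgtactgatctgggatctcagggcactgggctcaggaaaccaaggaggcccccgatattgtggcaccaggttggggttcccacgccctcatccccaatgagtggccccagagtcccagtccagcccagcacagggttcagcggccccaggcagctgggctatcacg
Plin5: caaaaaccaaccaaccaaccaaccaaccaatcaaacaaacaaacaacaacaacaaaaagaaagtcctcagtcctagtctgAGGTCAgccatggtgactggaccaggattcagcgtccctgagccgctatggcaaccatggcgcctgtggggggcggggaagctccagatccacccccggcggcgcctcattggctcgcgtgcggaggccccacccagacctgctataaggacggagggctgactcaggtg
G0s2: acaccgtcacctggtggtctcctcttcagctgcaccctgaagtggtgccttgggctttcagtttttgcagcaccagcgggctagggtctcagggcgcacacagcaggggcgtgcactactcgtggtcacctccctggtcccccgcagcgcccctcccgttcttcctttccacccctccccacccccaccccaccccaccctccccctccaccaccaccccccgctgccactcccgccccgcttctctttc

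The motif begins 218 bases before the start in *Plin2* and 170 bases before it in the *Plin5* window shown. It was not found in the window of the other *Plin5* start, nor in those of *Plin1*, *Plin4* and *G0s2*. Over the 14 windows of the 10 genes it was found on either strand in 3, the third being that of *Abhd5*, 69 bases before the start, and in 14% of all 32851 windows of the same length. The motif TGACGT of cAMP response elements was found in 0 of the 14 windows, on either strand, and in 6.47% of all windows. The core ACGTG of hypoxia response elements was found in 3 windows, of *Lipe* and *Mgll*, and in 16.6% of all windows. In 2 of these 3 windows it is read on both strands as the palindrome CACGTG. A match in these letters describes the sequence and does not show that a factor is bound.

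*Cidec* lies on chromosome 6 from 113374628 to 113385754. Its sham values were 0.31 and 0.36 and its injury values -0.23 and 0.32. The groups overlapped, since injury replicate 2 was within the sham range, and the difference of -0.29 (95% interval -0.82 to 0.24) was within the spread between libraries (adjusted p = 0.417). Without injury replicate 1 the difference was -0.013.

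The lipases were examined next. *Pnpla2*, the gene of ATGL, lies on chromosome 7 from 148641097 to 148646642. It was at 0.32 and 0.43 after sham operation and at 0.28 and 0.61 after injury. The injury libraries enclosed the sham libraries, and the difference was 0.068 (95% interval -0.35 to 0.49, adjusted p = 0.820). *Lipe*, the gene of HSL on chromosome 7 from 26164546 to 26183729, was at 0.37 and 0.42 after sham operation and at -0.12 and 0.30 after injury. Both injury libraries were lower, but the difference of -0.30 was not beyond the spread between libraries (standard error 0.18, adjusted p = 0.327), and without injury replicate 1 it was -0.095. *Mgll*, the gene of MGL on chromosome 6 from 88674406 to 88778354, was at 0.36 and 0.32 in the sham libraries and at 0.62 and 0.75 in the injury libraries. Here both groups were tight and did not overlap. The difference of 0.35 was small (standard error 0.14, 95% interval 0.0032 to 0.69), and its adjusted p-value was 0.167.

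The genes of the ATGL activator and inhibitor had differences of opposite sign. *Abhd5*, the activator on chromosome 9 from 122260726 to 122290642, was at 0.14 and 0.29 after sham operation and at -0.40 and 0.23 after injury. Injury replicate 2 was within the sham range, and the difference of -0.31 (95% interval -0.89 to 0.28, adjusted p = 0.438) was 0.0091 without injury replicate 1. *G0s2*, the inhibitor on chromosome 1 from 195098355 to 195099382, was at -1.13 and -0.20 after sham operation and at 0.42 and 0.28 after injury. The groups did not overlap, but the sham libraries were 0.93 apart. The difference was 1.01 (standard error 0.31, 95% interval 0.23 to 1.79, adjusted p = 0.105). Leaving out sham replicate 1 gave 0.55, and leaving out sham replicate 2 gave 1.48.

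Gaps between genes were then taken within each library, which leaves out whatever shifts both genes alike. The pairs were chosen with the values known, so the gaps are a description and were not tested. *Plin2* minus *Plin1* was -1.16 and -1.11 in the sham libraries and 0.78 and 0.14 in the injury libraries. The sham libraries were nearly equal, and the sign of the gap, which depends on the unstated reference of each gene, differed between the groups. The mean gap was 1.60 deposited units higher after injury. *Plin5* minus *Plin4*, the neighbouring genes, was -0.67 and 0.26 after sham operation and 1.71 and 1.60 after injury. In this gap the injury libraries were closer together, and the sham libraries further apart, than in either gene alone. *Mgll* minus *Lipe* was -0.0035 and -0.10 after sham operation and 0.74 and 0.45 after injury. *G0s2* minus *Pnpla2* was -1.45 and -0.63 after sham operation and 0.14 and -0.33 after injury. In each of these 4 gaps both injury libraries were above both sham libraries. *Abhd5* minus *Pnpla2* was -0.18 and -0.14 after sham operation and lower in both injury libraries, at -0.69 and -0.38.

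**Figure D3:**
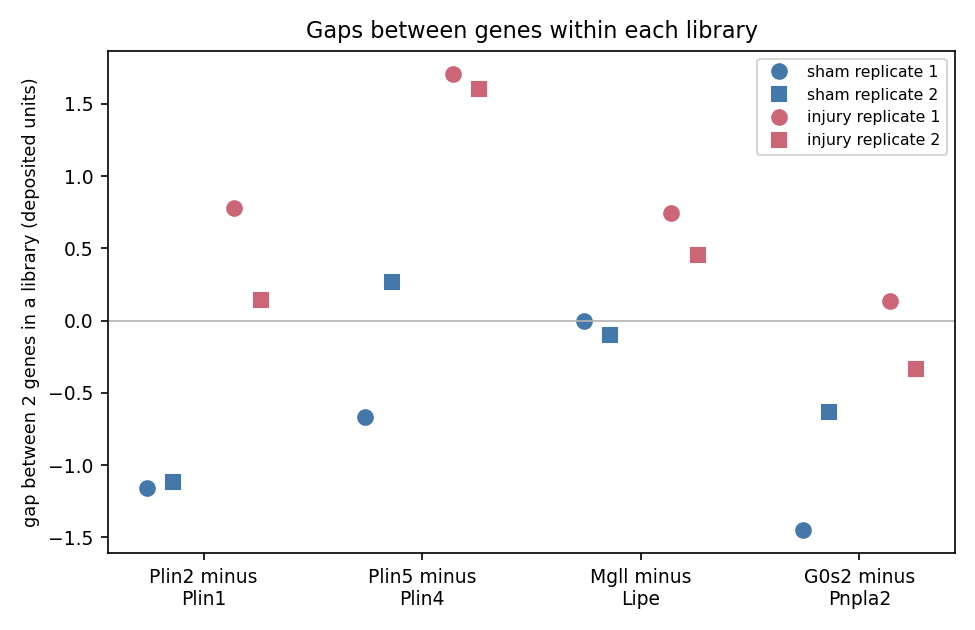
Gap between the values of 2 genes in the same library (vertical axis, deposited units) for 4 pairs, with sham libraries in blue, injury libraries in red, circles for replicate 1 and squares for replicate 2. The gap of *Plin2* over *Plin1* lies at -1.16 and -1.11 in the sham libraries and at 0.78 and 0.14 in the injury libraries.

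The libraries of a group differed from each other in these genes. Injury replicate 2 was above injury replicate 1 in 8 of the 10, and in 51.1% of all genes. Sham replicate 2 was likewise above sham replicate 1 in 8 of the 10, all but *Plin4* and *Mgll*, and in 6132 of all 12661 genes. Between the injury libraries the exceptions were *Plin2*, which was 0.45 lower in injury replicate 2 at 0.15 against 0.59, and *G0s2*, at 0.28 against 0.42. *Plin4*, *Plin5*, *Abhd5* and *Cidec* were 0.75, 0.64, 0.63 and 0.55 higher in injury replicate 2. Markers of other cells differed between these libraries as well. The mean over 13 macrophage markers was -1.10 and -1.03 in the sham libraries and 0.45 and -0.068 in injury replicates 1 and 2, and 12 of the 13 were higher in injury replicate 1. The mean over 10 neutrophil markers was -1.16 and -0.70 in the sham libraries and 1.2 and 0.065 in the injury libraries, with all 10 higher in injury replicate 1. The mean over 16 adipocyte markers outside the droplet was 0.29 and 0.38 in the sham libraries, and it was lower in injury replicate 1, at 0.081, than in injury replicate 2, at 0.41. The mean over 7 smooth muscle markers was 1.59 and 0.877 in the sham libraries and -1.20 and -0.195 in the injury libraries, with all 7 higher in injury replicate 2. The part of these marker differences in the values of the 10 genes was not tested. Since the reference of the values is not stated, it cannot be read from them which markers are absent.

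**Figure D4:**
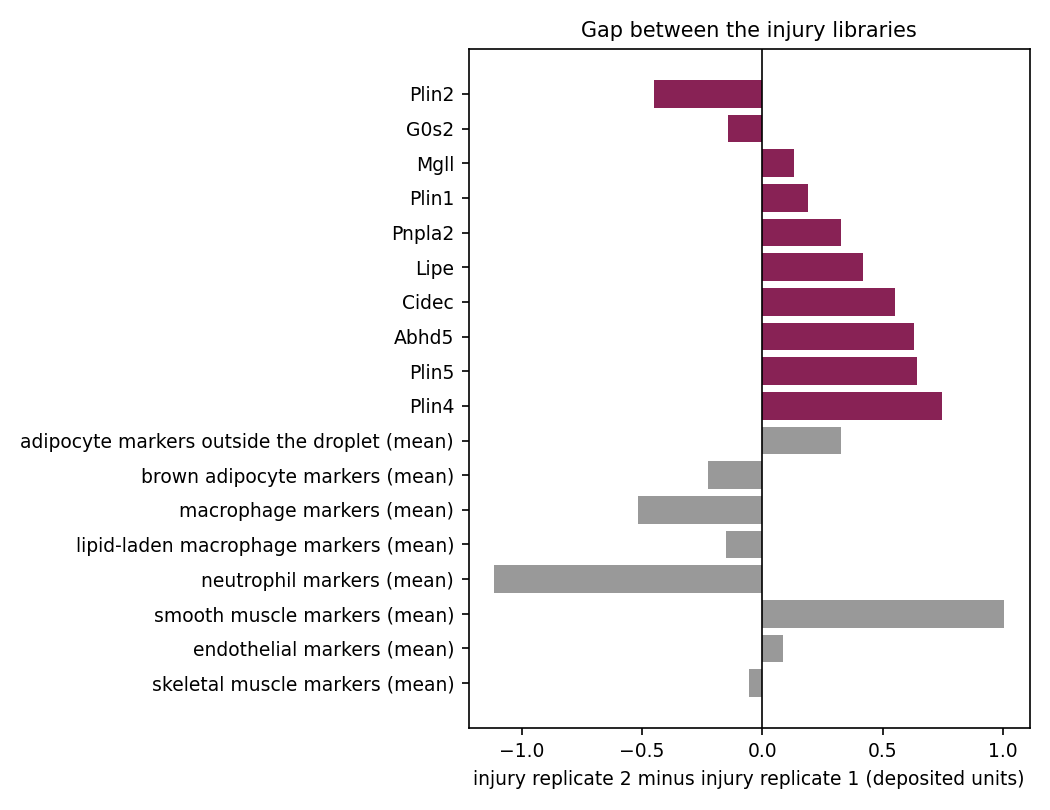
Value in injury replicate 2 minus that in injury replicate 1 (horizontal axis, deposited units) for each of the 10 genes and, in grey, for the means of 8 marker lists. By sign alone, *Plin2* and *G0s2* are on the same side as the macrophage, lipid-laden macrophage, neutrophil, brown adipocyte and skeletal muscle markers. The other 8 genes are on the side of the adipocyte, smooth muscle and endothelial markers. Some gaps are small, such as those of the skeletal muscle markers (-0.0576), the endothelial markers (0.0835), *G0s2* (-0.14) and *Mgll* (0.13). The neutrophil (-1.115) and smooth muscle (1.005) markers have the largest.

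*Plin1* was set beside other genes of the mature adipocyte. *Adipoq*, the adiponectin gene, was at 0.13 and 0.25 after sham operation and at -0.98 and -0.24 after injury, a difference of -0.80 (adjusted p = 0.119). *Plin1* minus *Adipoq* was 0.50 and 0.41 in the sham libraries and 0.79 and 0.24 in the injury libraries, so this gap did not separate the groups. Of the 16 adipocyte markers outside the droplet, 0 were called in either direction by limma, 5 were lower and 4 higher without overlap (30.3% and 31.6% of all genes), and their median difference was -0.064. Without injury replicate 2, 5 of these 16 markers were called lower, in the fit where *Plin1* kept its call. At the ends of the list, *Retn*, the resistin gene, differed by -0.94 (adjusted p = 0.202) and *Gpd1*, a glycerol phosphate dehydrogenase gene, by 0.64 (adjusted p = 0.150). *Pparg*, the nuclear receptor that drives the adipocyte programme, was at 0.010 and 0.33 after sham operation and at 0.038 and 0.34 after injury, a difference of 0.021 (adjusted p = 0.950).

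Other droplet proteins were taken from a list of which 19 genes were measured. The call was higher for 3 and lower for 0, and the median difference was 0.049. *Plin3*, the remaining perilipin gene, was at -0.27 and -0.25 after sham operation and at 0.43 and 0.44 after injury. The libraries of each group were nearly equal, and the difference was 0.69 with a standard error of 0.13 (adjusted p = 0.0435). *Plin3* was thus called higher and *Plin1* lower, with *Plin2* and *Plin5* above the sham libraries and *Plin4* below them. *Hilpda*, whose product inhibits ATGL as G0S2 does, was at -1.05 and -0.75 after sham operation and at 0.66 and 0.38 after injury, a difference of 1.42 (standard error 0.18, adjusted p = 0.0285). *Cidea*, the relative of *Cidec* known from brown fat, was at 0.62 and 1.67 after sham operation and at 3.32 and 3.28 after injury (adjusted p = 0.0323). Of the 3 genes of the family, *Cideb* had a difference of 0.66 (adjusted p = 0.140). *Cidea* lost its call after quantile normalization (adjusted p = 0.105) and with a variance prior that follows the mean (0.39).

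**Figure D5:**
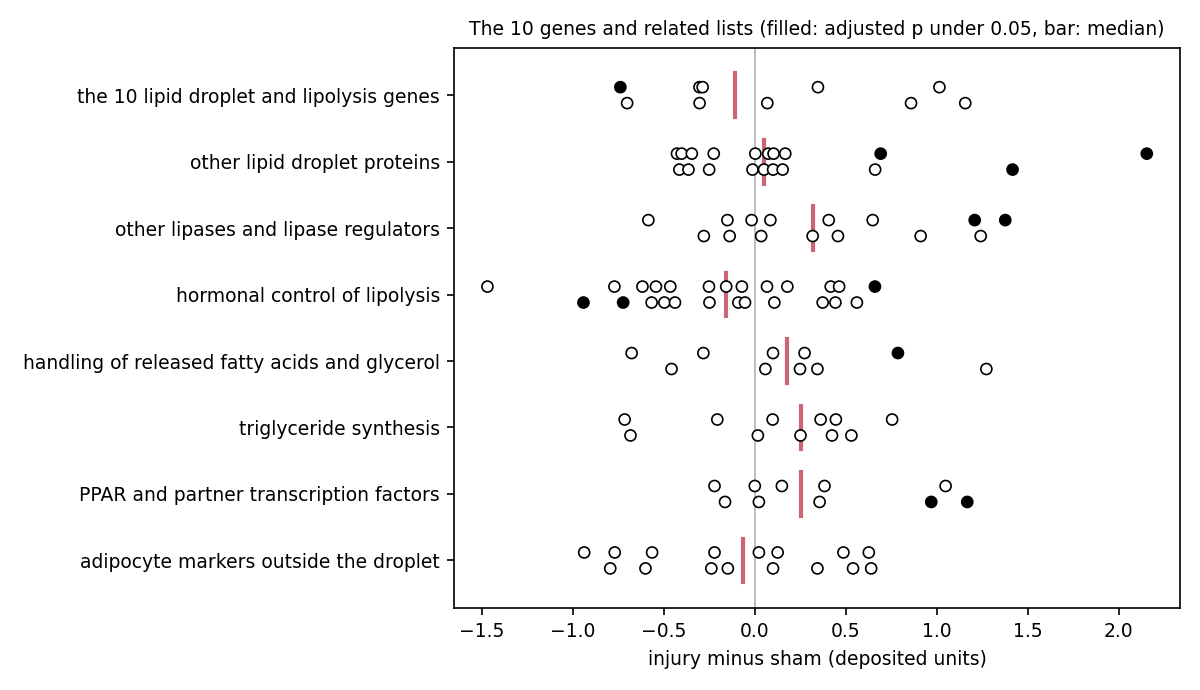
Difference between injury and sham libraries (horizontal axis, deposited units) of each gene in the list of 10 and in 7 related lists, with a bar at the median of each and filled points for adjusted p-values under 0.05. The filled points of the other droplet proteins are *Plin3* at 0.69, *Hilpda* at 1.42 and *Cidea* at 2.15.

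Among 15 other lipases and lipase regulators 2 were called higher and 0 lower. They were *Pnpla3*, a relative of ATGL whose product sits on droplets, with a difference of 1.21 (adjusted p = 0.0345), and *Nceh1*, a cholesteryl ester hydrolase gene of macrophages, with 1.38 (adjusted p = 0.0411). *Pnpla3* was at -0.19 and 0.21 after sham operation and at 1.38 and 1.06 after injury. *Nceh1* was at -1.09 and -0.89 and then at 0.73 and 0.042, so its injury libraries were far apart. *Lpl*, the lipoprotein lipase gene, had a difference of 0.65 (adjusted p = 0.0953).

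In the hormonal control of lipolysis, with 25 genes measured, 1 was called higher and 2 lower, and the median difference was -0.16. Without injury replicate 2 these counts were 0 higher and 5 lower. *Hcar1*, the receptor through which lactate restrains lipolysis, was at 0.54 and 0.56 after sham operation and at -0.17 and -0.19 after injury. Its libraries were nearly equal within each group, and the difference was -0.72 with a standard error of 0.13 (adjusted p = 0.0394). *Prkg1*, the cGMP-dependent kinase of the natriuretic peptide route, which smooth muscle also expresses, differed by -0.94 (adjusted p = 0.0345). The smooth muscle markers, 7 measured, had a median difference of -2.12 with 4 called lower, and their part in the value of *Prkg1* was not tested. *Akap1*, which anchors protein kinase A at mitochondria and droplets, differed by 0.66 (adjusted p = 0.0493) and lost its call after quantile normalization (0.0574), with a robust prior (0.0510) and with a prior that follows the mean (0.0675). *Adrb3*, the β3-adrenergic receptor gene, was at 0.49 and 0.75 after sham operation and at -0.43 and 0.13 after injury. Both injury libraries were lower, and the difference was -0.77, with an adjusted p-value of 0.0953. *Pde3b*, which ends the cAMP signal under insulin, differed by -0.25 with overlapping groups (adjusted p = 0.539).

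Of 10 genes that handle released fatty acids and glycerol, 1 was called higher, the mitochondrial thioesterase gene *Acot2*, with a difference of 0.79 (adjusted p = 0.0498). Its call was lost with a robust prior (0.0515) and with a prior that follows the mean (0.0567). Of 11 triglyceride synthesis genes 0 were called by limma. The ends of that list were *Gpam*, a glycerol phosphate acyltransferase gene (-0.72, adjusted p = 0.0628), and *Agpat6*, another gene of that activity (0.75, adjusted p = 0.0558). Among the PPARs and partner transcription factors, 10 measured, *Cebpb* and *Esrra* were called higher. *Cebpb*, an early factor of adipogenesis and of inflammation, differed by 1.17 (adjusted p = 0.0285). *Esrra*, a regulator of mitochondrial genes, differed by 0.97 (adjusted p = 0.0346). Without sham replicate 1 no gene of the whole table was called by limma, and without sham replicate 2 it was 1 gene, so each call named here needs both sham libraries. Without injury replicate 1, of the genes called in these related lists only *Cebpb* kept its call (adjusted p = 0.0454), while *Hilpda* was at 0.0507, *Nceh1* at 0.059 and *Plin3* at 0.094. Without injury replicate 2, *Plin3* (0.0539) and *Akap1* (0.0651) lost theirs, so the call of *Plin3* was lost whichever library was left out. Other genes of the lists gained calls in these fits. Without injury replicate 1 the gain was among the PPARs and partners, in the higher direction. Without injury replicate 2 there were gains in both directions in triglyceride synthesis and among the other lipases. In fatty acid and glycerol handling and among the other droplet proteins the gains were only in the lower direction. At an unadjusted p-value under 0.05 there were 1960 genes without sham replicate 1 and 2553 without sham replicate 2.

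The likeness of patterns was measured as the Euclidean distance between the 4 values of a gene after subtraction of its own mean. *Abhd5*, *Cidec* and *Lipe* formed the closest group, with a distance of 0.093 between *Abhd5* and *Cidec* and of 0.094 between *Lipe* and *Cidec*. Only 6 of the 12661 genes were closer to *Cidec* than *Abhd5* was, and 31 were closer to *Lipe* than *Cidec* was. These 3 genes had similar sham values, a low value in injury replicate 1 and a value near or within the sham range in injury replicate 2. *Plin1* was closest to *Plin4* (0.40) and *Plin5* to *G0s2* (0.57), both at larger distances. For *Plin1*, 1245 genes were closer than *Plin4*, for *Plin4*, 496 were closer than *Plin1*, and for *Plin5*, 23 were closer than *G0s2*. The closest of the 10 to *Plin2* was *Mgll* (0.66), with 2300 genes closer. Of the genes in the related lists, *Cfd*, the adipsin gene, was closest to *Plin4* (0.11), *Acot2* to *Plin2* (0.13), *Tie1* of endothelium to *Plin1* (0.10), *Pnpla7* to *Plin5* (0.50) and *Acot1* to *G0s2* (0.27). With 4 libraries such distances are a description.

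The cells of the tissue piece were checked with further lists. Brown adipocyte markers had 6 of 10 called higher (*Cidea*, *Cox8b*, *Cox7a1*, *Cpt1b*, *Kcnk3* and *Letmd1*) and macrophage markers 8 of 13, among them *Csf1r*, *Itgam*, *Ccr2*, *Lyz2* and *C1qa*. *Ucp1*, the uncoupling protein gene that defines brown fat, was at 0.97 and 2.76 after sham operation and at 3.82 and 3.02 after injury, and was not called (adjusted p = 0.164). In each of the brown, macrophage, lipid-laden macrophage and neutrophil lists 1 gene was lower without overlap, and none of these passed the threshold: *Prdm16* (-0.45, adjusted p = 0.221), *Cd163* (-0.81, 0.191), *Cd9* (-0.46, 0.102) and *Lcn2* (-0.97, 0.0594). The brown count was 2 after quantile normalization, 1 with a prior that follows the mean and 0 without injury replicate 1. The macrophage count was 5 with that prior and 3 without injury replicate 1. Markers of lipid-laden macrophages, in which *Plin2* is a known droplet coat, had 6 of 12 called higher, namely *Trem2*, *Gpnmb*, *Lgals3*, *Spp1*, *Mmp12* and *Atp6v0d2*. Their mean was -0.89 and -0.70 in the sham libraries and 0.31 and 0.16 in the injury libraries. Neutrophil markers had 3 of 10 called higher (*Retnlg*, *Mmp8* and *Clec4d*), and 9 without injury replicate 2. Of 7 smooth muscle markers 4 were called lower (*Myh11*, *Acta2*, *Tagln* and *Cnn1*), as were 3 of 10 endothelial markers (*Pecam1*, *Vwf* and *Eng*), and without injury replicate 1 each count was 1. Skeletal muscle, which uses *Plin4*, *Plin5* and *Lipe*, had 0 of 9 markers called by limma, from *Mylpf* at -1.04 to *Eno3* at -0.027. The mean of the muscle markers was 0.67 and -0.055 in the sham libraries and -0.33 and -0.39 in the injury libraries.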

How the data were processed

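RNA-seq was done on 2 sham and 2 injury libraries of the mouse femoral PVAT. Per the labels and the study's methods, the authors checked reads with FastQC 0.11.8, used Cutadapt 1.18 and Trimmomatic 0.39 for trimming and STAR 2.6.0a for alignment (build mm9), counted with featureCounts and used DESeq2 1.28.0 in R 3.6.0. Whether strand was used in counting is not given in the sources used here. The authors deposited a signed score per gene and library, from -2.27 to 6.45. How it was made from counts, and which filter left 12661 genes, is not stated.

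Groups were compared with limma 3.58.1 in R 4.3.3 (lmFit and eBayes, group as the only term, 2 residual and 3.48 prior degrees of freedom), with Benjamini-Hochberg adjustment over all genes and a threshold of 0.05. The fit was tested on simulated data. There it called 91% of the genes given a difference of 2 units, but only 20.75% of those given 1 unit. No filter on abundance could be applied. The 10 genes and the 14 lists were chosen with earlier results of these data known. Named genes were the 10, every called gene of the lists (some macrophage markers are counted but not reported by name here), the ends of lists without a call, and the genes closest to each of the 10 in pattern, of which some are given. *Cideb*, *Lpl*, *Adrb3*, *Pde3b*, *Adipoq* and *Pparg* were given values as relatives or partners of the 10, and *Ucp1*, *Prdm16*, *Cd163*, *Cd9* and *Lcn2* as markers outside the calls, after their values were seen. GENCODE on NCBIM37 (mm9) supplied gene coordinates and held 92.3% of the symbols. Promoters are from RefSeq (GRCm38.p6). The pairs for gaps within a library were chosen after seeing the data. Alternatives were a replicate block, each library left out, columns scaled to one spread, quantile normalization, a robust prior, a prior that follows the mean, identical rows counted once, an adjusted p-value under 0.1 and a minimum difference of 1 unit. Python 3.11.15, pandas 2.3.3, numpy 2.4.6 and matplotlib 3.10.9 handled tables and plots.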

Additional observations from a re-analysis of the deposited data

How the results depend on the processing

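The limits are 2 libraries a group, an unknown depth and an unstated scale. A fit without 1 library leaves a lone library in its group, which is assumed to vary like the others. Over those fits limma called 0 to 1790 genes (941 with all libraries), the number of the 10 genes called was 0 to 3, and the difference of *Plin1* was -0.83 to -0.65, that of *Plin2* 0.63 to 1.08, that of *Plin4* -1.08 to -0.33, that of *Pnpla2* -0.096 to 0.23 and that of *Abhd5* -0.62 to 0.0091. *Pnpla2* turned negative without injury replicate 2, and *Abhd5* turned positive without injury replicate 1. The 3 called without injury replicate 2 were *Plin1*, *Plin2* and *Plin4*.

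An adjusted p-value under 0.1 gave 2317 genes and 2 of the 10 (*Plin1* and *Plin2*), and a minimum difference of 1 unit gave 591 and 0, which follows from the thresholds. After quantile normalization *Plin2* (difference 0.83) joined *Plin1*, so that 2 of the 10 were called. The same held with columns scaled to one spread (0.83) and with a prior that follows the mean (0.86). Over all 12661 genes these fits called 1061, 1128 and 1053, against 941 in the main fit. The cause was not tested.

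Replicates of the groups share only a number, and the correlation of same-numbered deviations was -0.094. With the replicate block 684 genes were called, 579 of them also without it. *Plin1* lost its call (difference -0.74, adjusted p = 0.0656) and *Plin5* gained one (1.16, adjusted p = 0.0365). Of the called genes in the related lists, *Plin3* (adjusted p = 0.0711), *Pnpla3* (0.0523), *Nceh1* (0.0514), *Akap1* (0.078), *Hcar1* (0.0652), *Acot2* (0.0666) and *Esrra* (0.0536) also lost theirs with the block, while 1 other gene of the lipase list gained one. The 4 smooth muscle markers called lower also lost their calls with the block (*Cnn1* 0.0521, *Acta2* 0.0537, *Tagln* 0.0576, *Myh11* 0.0652). Of the 6 brown adipocyte markers, 4 kept a call. The cause was not tested. The robust prior and identical rows counted once changed no call among the 10 genes.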
